A study of Mus musculus with 4 samples.

Results

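Cirbp and Rbm3 are the 2 cold-inducible RNA-binding protein genes of the mouse that share a single RNA recognition motif followed by a glycine-rich tail. They were taken by name from the annotation, as 2 of 35427 genes, with all 18 of their annotated transcripts (7 of Cirbp and 11 of Rbm3) of 115898 matched transcripts. The RNA came from the hippocampus of C57BL/6J mice, 4 months of age, and in both groups the animals carried P2RY12CreER together with the Rpl22HA RiboTag allele. The P2ry12 gene drives an inducible Cre in microglia here, and recombination adds a tag to a ribosomal protein, by which ribosomes are pulled down with their messages. The RNA was then enriched for poly(A) tails. Sleep-deprived mice were fear conditioned and then kept awake for 6 h, and control mice were fear conditioned and then allowed to sleep for 6 h. Groups were taken from the sample titles, since the treatment label names sleep deprivation for all 4 samples. Every sample was a pool of 2 mice, the samples of a group are called technical replicates, and 2 files were used per group. Files that shared a group differed by less than sampling noise allows (chi-square per degree of freedom over genes of 0.226 between the sleep-deprived files and 0.334 between the control files, but 69.2 to 69.4 across groups), so they were counted as 1 sample. All comparisons therefore set 1 library against 1 library, so that no difference has a replicate check and none has a p-value.

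Cirbp and Rbm3 proteins bind messages and affect their stability, splicing and translation. Their own messages accumulate when cells are mildly cooled and decline when they are warmed, and in mouse cells part of this control lies in splicing. Rbm3 has an exon that carries an early stop codon, called a poison exon, which is included more at warmer temperature in mouse and human cells. A message with such a stop codon is usually degraded by nonsense-mediated decay, a surveillance pathway that recognises a stop codon lying far ahead of an exon junction. For Cirbp, the efficiency with which its precursor is spliced follows temperature in mouse fibroblasts. In whole mouse cortex, Cirbp is a known gene of the sleep loss response, where its level declines.

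The sequences that separate the coding messages from the other transcripts are shown first, because the results turn on them. They are from the GENCODE transcript set on GRCm38, read 5′ to 3′, with the last 30 bases of a shared exon in lower case and the bases that follow in capitals. For Cirbp, on the plus strand, the shared exon ends at chr10:80170735-80170764. The capitals lie at chr10:80170982-80170998 in the coding message Cirbp-202 and at chr10:80172414-80172418 in Cirbp-201, a transcript annotated for nonsense-mediated decay, and both run to the stop codon. In Cirbp-204, which keeps the intron, they lie at chr10:80170765-80170794.
Cirbp-202: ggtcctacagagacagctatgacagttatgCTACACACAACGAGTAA
Cirbp-201: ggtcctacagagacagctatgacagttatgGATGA
Cirbp-204: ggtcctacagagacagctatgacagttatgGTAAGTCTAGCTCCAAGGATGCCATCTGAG
The open reading frame from the start codon held 172 codons in Cirbp-202, 168 in Cirbp-201 and 176 in Cirbp-204, so that the protein ends differed only in their last residues. The stop codon of Cirbp-201 lay 94 bases ahead of its last exon junction.

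For Rbm3, on the minus strand, the shared exon ends at chrX:8144573-8144602. The capitals are the start of the next coding exon in Rbm3-203 (chrX:8143918-8143947), the poison exon up to its stop codon in Rbm3-208 (chrX:8144383-8144445) and the kept intron in Rbm3-209 (chrX:8144543-8144572).
Rbm3-203: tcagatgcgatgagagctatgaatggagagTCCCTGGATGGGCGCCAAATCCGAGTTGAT
Rbm3-208: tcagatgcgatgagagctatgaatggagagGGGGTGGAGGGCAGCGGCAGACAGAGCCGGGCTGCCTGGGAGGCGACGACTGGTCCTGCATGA
Rbm3-209: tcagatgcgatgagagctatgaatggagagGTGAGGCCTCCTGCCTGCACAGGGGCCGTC
The poison exon spans 271 bases at chrX:8144175-8144445 and is an exon of Rbm3-207 and Rbm3-208. The reading frame held 154 codons in Rbm3-203, 90 codons in Rbm3-207 and Rbm3-208, and 106 codons in Rbm3-209. The premature stop codon lay 488 bases ahead of the last junction in Rbm3-207 and 402 bases ahead of it in Rbm3-208.

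Summed over all transcripts, neither gene reached a 2-fold difference in reads, while their summed transcripts other than coding ones did, at 2.55 (2.29 to 2.84) for Cirbp and 4.28 (3.91 to 4.69) for Rbm3. The value of Rbm3 rests in part on how the authors' model divided reads between its coding and other transcripts. In what follows, higher and lower mean a ratio of sleep-deprived over control of at least 2-fold in either direction whose 95% interval excludes 1, and intervals cover counting error only. Cirbp (chromosome 10, 80165985 to 80172786, plus strand) had 2189 and 2190 estimated reads in the sleep-deprived files, against 1537 and 1524 in the control files. Scaled to CPM, counts relative to library sizes normalized by TMM, it was at 155 CPM in the sleep-deprived library and 102 CPM in the control library, a ratio of 1.52 (1.43 to 1.63). Rbm3 (chromosome X, 8138975 to 8145880, minus strand) had 4471 and 4491 reads in the sleep-deprived files, against 2909 and 2901 in the control files. That was 317 CPM in the sleep-deprived library and 193 CPM in the control library, a ratio of 1.64 (1.57 to 1.72). For both genes the files of a group lay close together, which for technical replicates within sampling noise gives no measure of the spread between animals. Of 14932 genes measured, 630 were higher, which is 4.22%, and 846 or 5.67% were lower, together 9.88%. At a 1.5-fold bound 12.4% were higher, and both Cirbp and Rbm3 passed it, but Cirbp did not with scaling by total counts (1.47), nor Rbm3 with a correction for transcript length (1.49). The log2 ratios of Cirbp (0.61) and Rbm3 (0.72) exceeded those of 86.8% and 90.1% of measured genes, whose quartiles were −0.38 and 0.35.

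**Figure D1:**
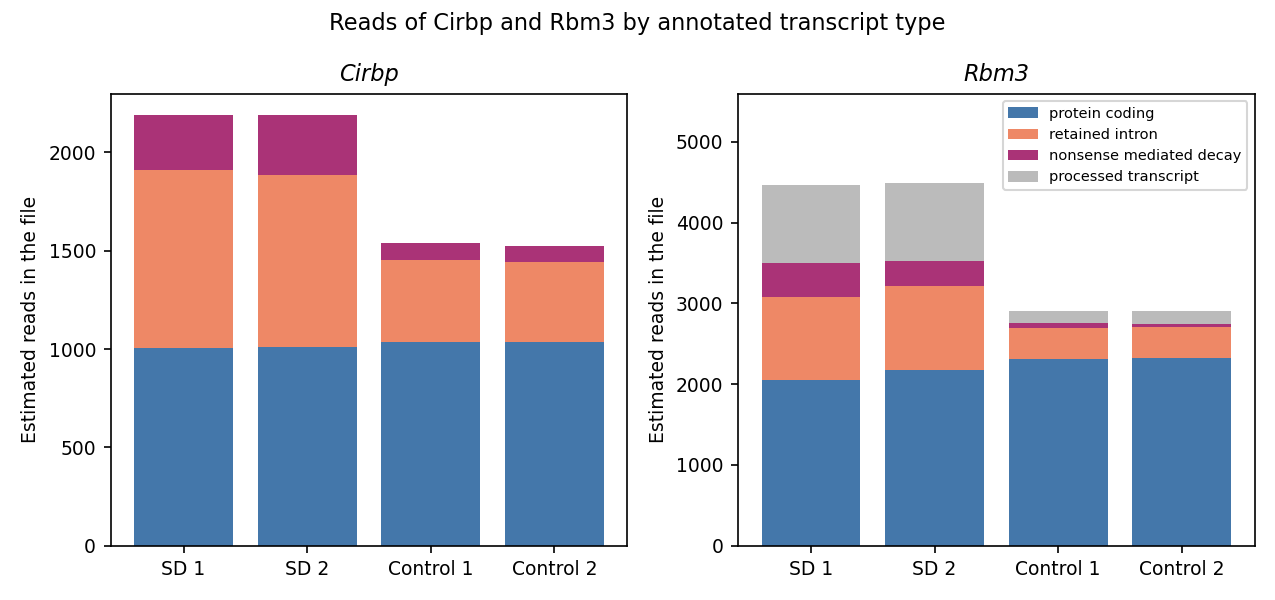
Estimated reads of Cirbp (left) and Rbm3 (right) in each of the 4 files, stacked by annotated transcript type, with the sleep-deprived (SD) files left of the control files. The coding segment of Cirbp lies between 1005 and 1038 reads in all 4 files, and the segments above it are taller in both SD files.

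The summed level in TPM, a transcript abundance per unit of length and depth, was 454 and 456 TPM for Cirbp in the sleep-deprived files and 223 and 219 TPM in the control files. For Rbm3 it was 550 and 559.6 TPM in the sleep-deprived files and 319 and 321 TPM in the control files. The TPM ratios, for which no counting interval was made, were 2.06 for Cirbp and 1.73 for Rbm3, where the read ratios were 1.52 and 1.64. The coding transcripts alone summed to 279 and 298 TPM for Rbm3 in the sleep-deprived files, against 256 and 260.0 TPM in the control files. In TPM, Rbm3 was above Cirbp in every file, and the level of Cirbp was above that of 97.5% of measured genes and the level of Rbm3 above that of 98.3%.

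The coding message of Cirbp was at nearly the same level in both libraries. Cirbp-202, which encodes the full protein, had 1003 and 1009 reads in the sleep-deprived files, against 1035 and 1037 in the control files. This was 71.1 CPM in the sleep-deprived library and 68.8 CPM in the control library, with a ratio of 1.03 (0.947 to 1.13), and 0.998 with scaling by total counts. In TPM, Cirbp-202 was at 124 and 125 in the sleep-deprived files and at 103 and 103 in the control files. The other transcript annotated as coding, the incomplete Cirbp-207, had at most 4.07 reads in any file.

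Of the 5 measured transcripts of Cirbp, 3 were higher and 1 lower, where 22.4% of 39640 measured transcripts were higher and 12.7% lower. Cirbp-204, which keeps the intron after the sixth exon, had 440.2 and 400.0 reads in the sleep-deprived files, against 109 and 107 in the control files. Its ratio was 4.14 (3.34 to 5.16). All of its stretches of 31 bases occur in other transcripts of Cirbp, so that its reads were set apart from theirs by the authors' model alone. Cirbp-206 covers the same intron in a shorter fragment that also keeps the preceding intron, and it was lower, with 9.90 and 29.8 reads in the sleep-deprived files, against 70.3 and 66.6 in the control files (0.313, 0.180 to 0.522). That ratio was 0.470 without the first sleep-deprived file and 0.157 without the second. Summed, Cirbp-204 and Cirbp-206 had 450.2 and 430 reads in the sleep-deprived files, against 179 and 174 in the control files, a ratio of 2.66 (2.23 to 3.19).

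The transcripts that use the distal exons of Cirbp, downstream of the usual last exon, were higher as well. Cirbp-201, the nonsense-mediated decay transcript shown above, had 276 and 306 reads in the sleep-deprived files, against 84.0 and 81.9 in the control files. Its ratio was 3.73 (2.92 to 4.82). Cirbp-205 consists only of the 2 distal exons, the first of them extended into the intron ahead of it, and had 458 and 441 reads in the sleep-deprived files, against 235 and 232 in the control files. Its ratio of 2.05 (1.75 to 2.41) lay at the bound, and was 1.98, no longer called, with scaling by total counts. Of their stretches of 31 bases, 14.4% of those of Cirbp-201 and 76.6% of those of Cirbp-205 occur in no other transcript, where the share was 42.0% for Cirbp-202. The last transcript, Cirbp-203, had at most 1.06 reads in any file.

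**Figure D2:**
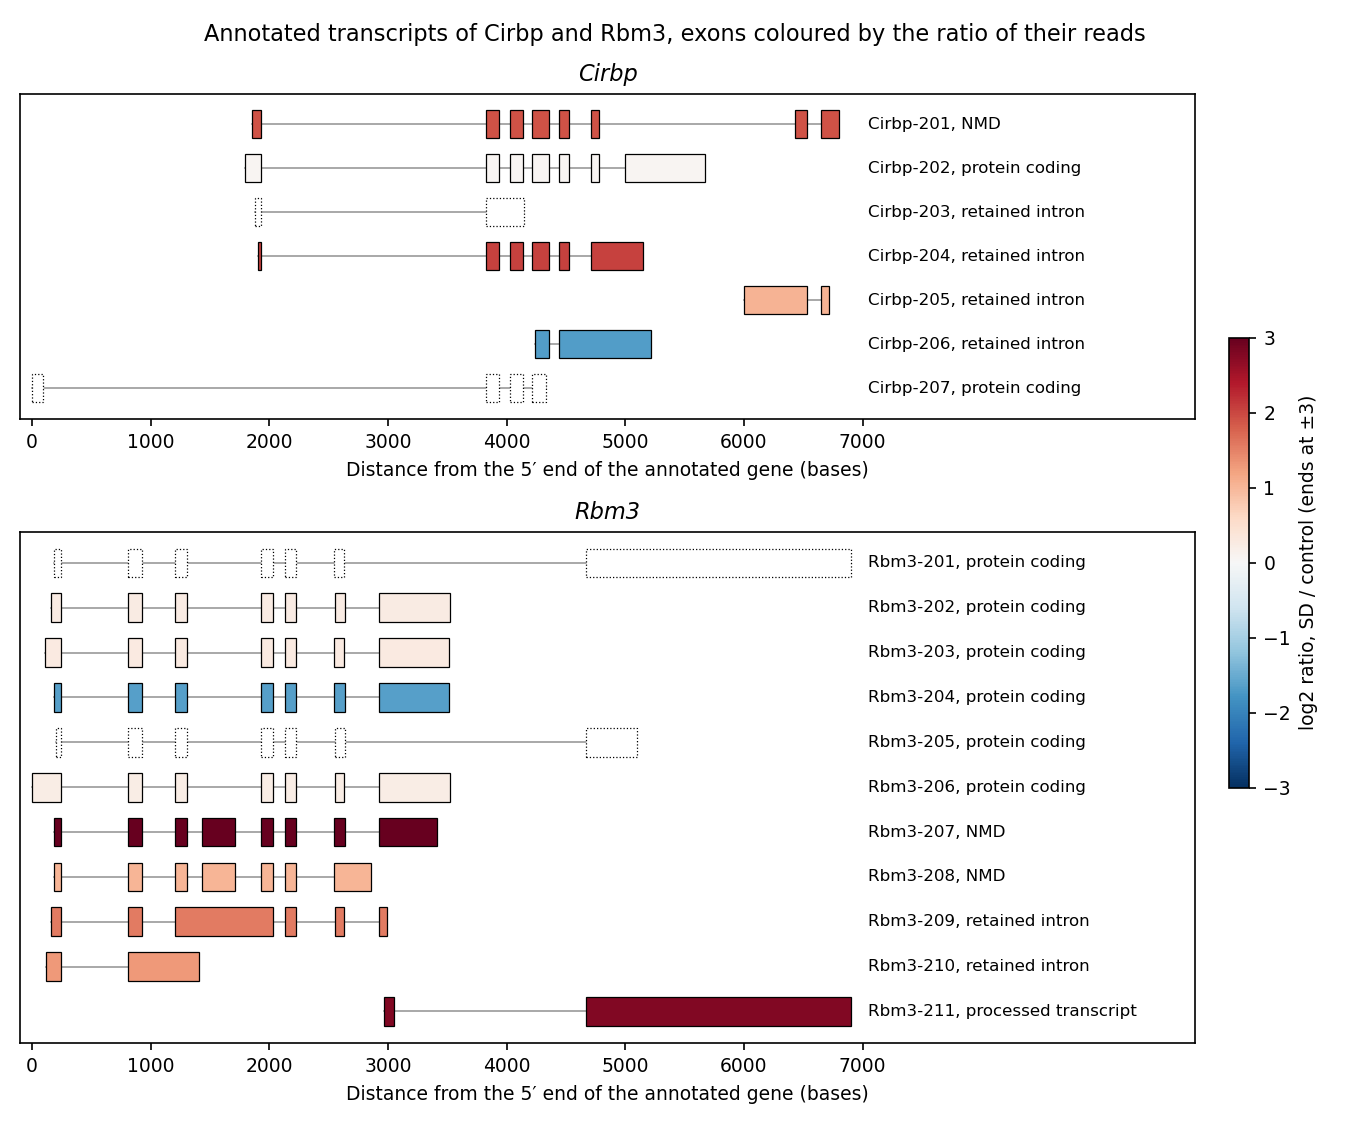
Exons (boxes) and introns (lines) of the annotated transcripts of Cirbp (above) and Rbm3 (below), by distance in bases from the 5′ end of each gene, filled by the log2 ratio of sleep-deprived over control reads, and with dotted outlines where a transcript was not measured. The strongest reds are Rbm3-207 (NMD, nonsense-mediated decay), Rbm3-211 and Cirbp-204, the coding transcripts Cirbp-202, Rbm3-202, Rbm3-203 and Rbm3-206 are pale, and the coding Rbm3-204 and the retained-intron Cirbp-206 are blue.

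Rbm3 had 9 measured transcripts, of which 5 were higher and 1 lower. The coding transcripts Rbm3-202, Rbm3-203 and Rbm3-206 differ only in where their first and last exons begin or end and by a few bases at the edges of the exon before the last. Rbm3-203 had 954 and 995 reads in the sleep-deprived files, against 883 and 852 in the control files, a ratio of 1.20 (1.09 to 1.31). Rbm3-202 had 717 and 624 reads in the sleep-deprived files, against 619 and 594 in the control files (1.18, 1.05 to 1.32). Rbm3-206 had 286 and 303 reads in the sleep-deprived files, against 300.5 and 236 in the control files (1.17, 0.990 to 1.39). None of the 3 reached 2-fold, and the values of Rbm3-206 overlapped between the groups. Neither Rbm3-202 nor Rbm3-203 holds a stretch of 31 bases of its own, and 90.7% of those of Rbm3-203 occur in Rbm3-202. Their separate ratios therefore also rest on the authors' model.

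The fourth measured coding transcript, Rbm3-204, was lower, and its estimate was entangled with that of a poison exon transcript. It had 90.3 and 250 reads in the sleep-deprived files, against 509 and 637 in the control files (0.316, 0.265 to 0.375). Its ratio was 0.465 without the first sleep-deprived file and 0.167 without the second, both outside that interval. Rbm3-207, which has the internal exons of Rbm3-204 with the poison exon added and a shorter last exon, had 326 and 187 reads in the sleep-deprived files and was listed at 0 in both control files. Against a floor of 3 reads per library its ratio was 90.8, with a lower 95% limit of 73.4. It was 66.4 without the first sleep-deprived file and 116 without the second. Neither transcript holds a stretch of 31 bases of its own, and 88.1% of those of Rbm3-204 occur in Rbm3-207. Where one was low within the sleep-deprived group the other was high, while their sum was 416 and 436 reads in the sleep-deprived files, against 509 and 637 in the control files (0.792, 0.697 to 0.899). All 6 coding transcripts together had 2047 and 2172 reads in the sleep-deprived files, against 2311 and 2318 in the control files, a ratio of 0.970 (0.914 to 1.03). That sum leaves out Rbm3-207, with 256 reads in the sleep-deprived library and 0 in the control library. It also leaves out the distal transcript Rbm3-211, with 972 and 152 reads. Both share most of their sequence with coding transcripts, so the level of the coding message is uncertain and may be higher in the sleep-deprived library. Rbm3-201 and Rbm3-205, the coding transcripts that end in the distal last exon, were listed at 0 in every file.

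Transcripts that hold the poison exon of Rbm3, spliced in or within a kept intron, were assigned more reads in the sleep-deprived library. Rbm3-208, the other spliced transcript with this exon, had 88.9 and 115 reads in the sleep-deprived files, against 66.4 and 40.9 in the control files. Its ratio of 2.01 (1.43 to 2.85) lay at the bound, and was 1.75 without the second sleep-deprived file, 1.65 without the second control file and 1.94 with scaling by total counts. The spliced poison exon transcripts Rbm3-207 and Rbm3-208 summed to a ratio of 7.06 (5.29 to 9.58), but to 0.897 (0.797 to 1.01) once the reads of Rbm3-204 were added, so that this value rests on how the reads were divided between Rbm3-204 and Rbm3-207. Rbm3-209 keeps the whole intron region around the poison exon and had 901 and 912 reads in the sleep-deprived files, against 325 and 330 in the control files, a ratio of 2.95 (2.60 to 3.36). Of its stretches of 31 bases, 25% occur in no other transcript. The 3 transcripts summed to 1316 and 1213 reads in the sleep-deprived files, against 391 and 371 in the control files, a ratio of 3.53 (3.15 to 3.97). They made up 28.2% of the gene's reads in the sleep-deprived library (exact Clopper-Pearson 95% interval 26.9 to 29.6) and 13.1% in the control library (11.9 to 14.4). This ratio and these shares include Rbm3-207 and so rest in part on the same division of reads. Rbm3-209 alone made up 20.2% in the sleep-deprived library (19.1 to 21.4) and 11.3% in the control library (10.1 to 12.5).

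A further retained intron and the distal end of Rbm3 were also higher. Rbm3-210 begins like the coding message, keeps the intron after the second exon, and had 133 and 136 reads in the sleep-deprived files, against 54.5 and 60.8 in the control files (2.48, 1.81 to 3.43). Rbm3-211, annotated as a processed transcript with no reading frame, had 975 and 969 reads in the sleep-deprived files, against 152 and 151 in the control files, a ratio of 6.81 (5.73 to 8.13). In TPM it was at 62.1 and 62.1 in the sleep-deprived files and at 7.78 and 7.77 in the control files. Of its stretches of 31 bases, 95.9% also belong to the long last exon region of the coding transcript Rbm3-201. Reads from a long coding message that ends there and from Rbm3-211 can hardly be told apart, and the deposited estimates gave all of them to Rbm3-211.

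**Figure D3:**
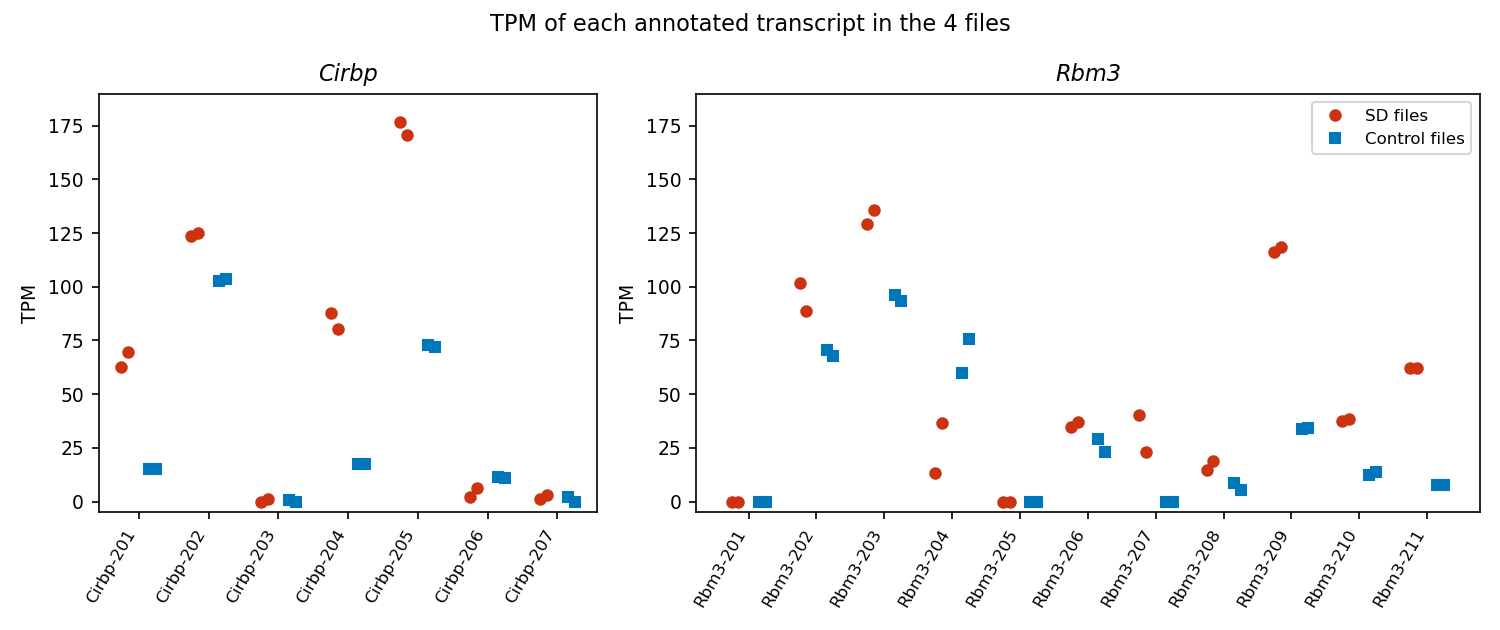
TPM of each annotated transcript of Cirbp (left) and Rbm3 (right), with red circles for the 2 sleep-deprived (SD) files and blue squares for the 2 control files. The 2 SD files lie apart for Cirbp-206 (2.03 and 6.15 TPM), for Rbm3-204 (13.2 and 36.8 TPM) and, in the opposite direction, for Rbm3-207 (40.3 and 23.2 TPM).

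Across both genes, 8 of 9 measured transcripts other than coding ones were higher and 1 lower, and of the 5 measured coding transcripts 0 were higher and 1 lower. Over all measured transcripts of a type, 29.5% of retained introns were higher and 7.3% lower, 27.7% of nonsense-mediated decay transcripts were higher and 16.4% lower, and 24.7% of processed transcripts were higher and 16.1% lower. Of coding transcripts, 18.6% were higher and 14% lower. The coding share of the reads of Cirbp was 45.9% and 46.2% in the sleep-deprived files, against 67.5% and 68.0% in the control files. As libraries these were 46.1% (44.0 to 48.2) and 67.8% (65.3 to 70.1), a difference of −21.7 percentage points (−24.9 to −18.5). The coding share of Rbm3 was 45.8% and 48.4% in the sleep-deprived files, against 79.5% and 79.9% in the control files. As libraries these were 47.1% (45.6 to 48.6) and 79.7% (78.2 to 81.1), a difference of −32.6 percentage points (−34.7 to −30.5). With Rbm3-211 counted as coding, the shares of Rbm3 were 68.8% in the sleep-deprived library and 84.9% in the control library, and with Rbm3-207 counted as coding they were 52.8% and 79.7%.

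The types other than coding took larger shares of reads in the sleep-deprived library in both genes. In Cirbp, retained introns took 40.6% of reads in the sleep-deprived library and 26.8% in the control library, and the nonsense-mediated decay transcript took 13.3% and 5.42%. In Rbm3, retained introns took 23.2% in the sleep-deprived library and 13.3% in the control library, the processed transcript 21.7% and 5.22%, and the poison exon transcripts 7.995% and 1.85%. With Rbm3-204 added, the last shares were 11.8% in the sleep-deprived library and 21.6% in the control library. On the TPM scale the coding share of Cirbp was 27.8% in the sleep-deprived library and 47.1% in the control library, and that of Rbm3 was 52.1% and 80.6%.

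Few genes had a coding share that was lower by as much in the deposited estimates. Of 9507 genes with coding and other transcripts and at least 50 reads in each library, 1071 (11.3%) had a coding share lower by at least 10 percentage points in the sleep-deprived library and 800 (8.41%) one higher by as much, together 19.7%. The median difference was −0.18 percentage points. The difference was smaller (more negative) than that of Cirbp in 271 of these genes and smaller than that of Rbm3 in 74. This place of Rbm3 rests on counting both Rbm3-211 and Rbm3-207 as other than coding. Its difference was −16.1 percentage points with Rbm3-211 counted as coding and −26.9 with Rbm3-207. A difference with both counted as coding was not obtained. For retained introns, 10.5% of 7154 genes gained at least 10 percentage points and 5.31% lost as much. Cirbp gained 13.8 points and was among them, and Rbm3, with 9.98 points, was just short of the bound. In Cirbp, the distal Cirbp-205 gained 5.28 points. Cirbp-204 and Cirbp-206, which keep the intron after the sixth exon, together gained 8.57 points, below the bound. For nonsense-mediated decay transcripts, 7.12% of 3482 genes gained and 8.85% lost 10 points, and Cirbp gained 7.87 and Rbm3 6.15. For processed transcripts, 3.52% of 5624 genes gained and 5.35% lost 10 points, and Rbm3 gained 16.5. Over all genes, retained-intron transcripts took 13.3% of reads in the sleep-deprived library and 10.6% in the control library, and the part of this wider difference in the values of Cirbp and Rbm3 was not tested.

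**Figure D4:**
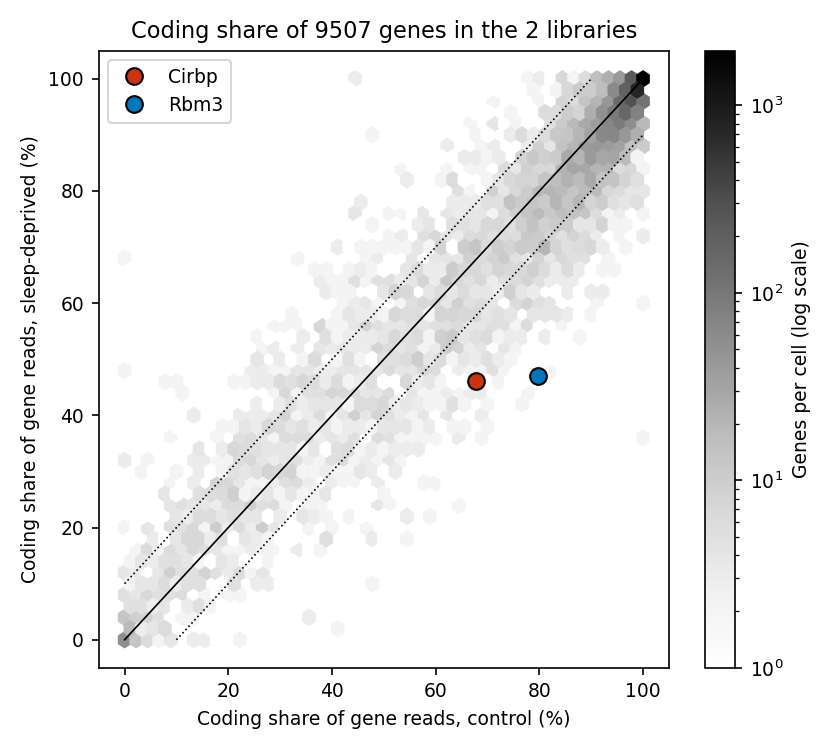
Coding share of gene reads (%) in the sleep-deprived library (vertical) against the control library (horizontal) for 9507 genes, with darker cells holding more genes, the solid line marking equal shares and the dotted lines a difference of 10 percentage points. Cirbp and Rbm3 lie below the lower dotted line, at 46.1% and 47.1% in the sleep-deprived library.

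The make-up of the libraries differed too, and both genes are expressed by many cell types. The pulldown was aimed at microglia, and their 15 markers were all detected, with 11 higher, 0 lower and a summed level of 602 CPM in the sleep-deprived library and 191 CPM in the control library. The 8 neuron markers summed to 2366 CPM in the sleep-deprived library and 2883 CPM in the control library, the 7 astrocyte markers to 1150.0 and 1968 CPM, the 6 oligodendrocyte markers to 2188 and 3485 CPM, and the 4 endothelial markers to 127 and 131 CPM. Of these, 3 astrocyte markers and 1 oligodendrocyte marker were lower. Among all measured genes 4.22% were higher and 5.67% lower. The sums hide markers that went opposite ways. Log2 ratios ranged from −0.80 to 0.77 over the 8 neuron markers, with 2 above 0. They ranged from −1.16 to 0.55 over the 6 oligodendrocyte markers, with 1 above 0. No marker of any of these cell types was at 0 in both libraries. In RNA from mixed cells, fewer cells of a type and less RNA per cell cannot be told apart, and the part of cell make-up in the values of Cirbp and Rbm3 was not tested. Mitochondrially encoded genes took 1.52% of reads in the sleep-deprived library and 3.20% in the control library.

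The genes around Cirbp and Rbm3 did not pass the bound. Next to Cirbp on the same strand, 1600002K03Rik starts 158 bases downstream of the distal exons and had 511 and 503 reads in the sleep-deprived files, against 271 and 274 in the control files, a ratio of 1.98 (1.70 to 2.30). Midn, which encodes a protein that brings nuclear proteins to the proteasome, lies 7617 bases upstream and had a ratio of 1.86 (1.54 to 2.24), and the ephrin gene Efna2, 6696 bases downstream, one of 0.958 (0.671 to 1.37). Next to Rbm3, Wdr13 had a ratio of 1.33 (1.27 to 1.40) and Tbc1d25 one of 1.06 (0.902 to 1.249). Rbm3os, an antisense gene that overlaps the first exon of Rbm3 (chromosome X, 8145429 to 8147964), was not analysed here. The sources used here do not give whether counting used strand, so its reads and those of the overlapped first exon may be mixed. Among the copies that share sequence with Rbm3, the pseudogene Rbm3-ps shares 372 stretches of 31 bases and had at most 1.02 reads in any file, and Gm10156, Gm48583 and Gm13624 were listed at 0. Phospho2, a phosphatase gene, shares 164 on the opposite strand and had 398 and 392 reads in the sleep-deprived files, against 439 and 443 in the control files.

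Related genes showed mixed values with 1 member past the 2-fold bound, where 9.88% of all measured genes were called in either direction. Of the closest relatives, Rbmx, a glycine-rich nuclear RNA-binding protein gene on the X chromosome, was at 287 CPM in the sleep-deprived library and 201 CPM in the control library (1.43, 1.36 to 1.499). Its retrogene relative Rbmxl1 was at 34.2 CPM in the sleep-deprived library and 55.7 CPM in the control library (0.614, 0.548 to 0.688), and reads shared between these similar genes are uncertain. Of 8 cold shock domain genes, whose proteins bind single-stranded nucleic acids, 7 were measured, with 0 called, a median log2 ratio of −0.18 and a range of −0.47 (Carhsp1) to 0.81 (Ybx3). Of 9 regulators, partners and target messages, 0 were called, with a median of −0.11. Hnrnph1, a splicing factor that represses the poison exon in human neurons, had a ratio of 1.75 (1.71 to 1.79). Its coding transcripts took 24.0% of its reads in the sleep-deprived library and 25.8% in the control library. Rtn3, whose message is bound by Rbm3 protein in the mouse brain, had one of 0.628 (0.601 to 0.656). Clock, whose message is bound by Cirbp protein, had one of 0.928 (0.871 to 0.988).

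Genes of temperature-dependent splicing lay mostly above 1, and the listed chaperone genes mostly below it. Of 7 splicing genes, 6 had a ratio above 1, with 1 higher and 0 lower, with a median log2 ratio of 0.53 where that of all measured genes was −0.01. The SR protein gene Srsf5 was at 2831 CPM in the sleep-deprived library and 1015 CPM in the control library, a ratio of 2.79 (2.74 to 2.84). The kinase gene Clk1, whose product responds to temperature and phosphorylates SR proteins, had a ratio of 1.56 (1.53 to 1.60). Coding transcripts took only 3.73% of its reads in the sleep-deprived library and 1.29% in the control library. Of 11 chaperone genes, whose induction by heat was not tested here, 3 had a ratio above 1 and 0 were called. Their median log2 ratio was −0.15, with a range of −0.82 (Hsp90ab1) to 0.27 (Hspa1b). The ratio of Hsp90ab1 was 0.566 (0.546 to 0.587). Hspa1b had only 26 reads in the sleep-deprived library and 23 in the control library, and its interval spans 1 (0.660 to 2.21). The lists were not chosen independently of earlier results on these libraries.

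**Figure D5:**
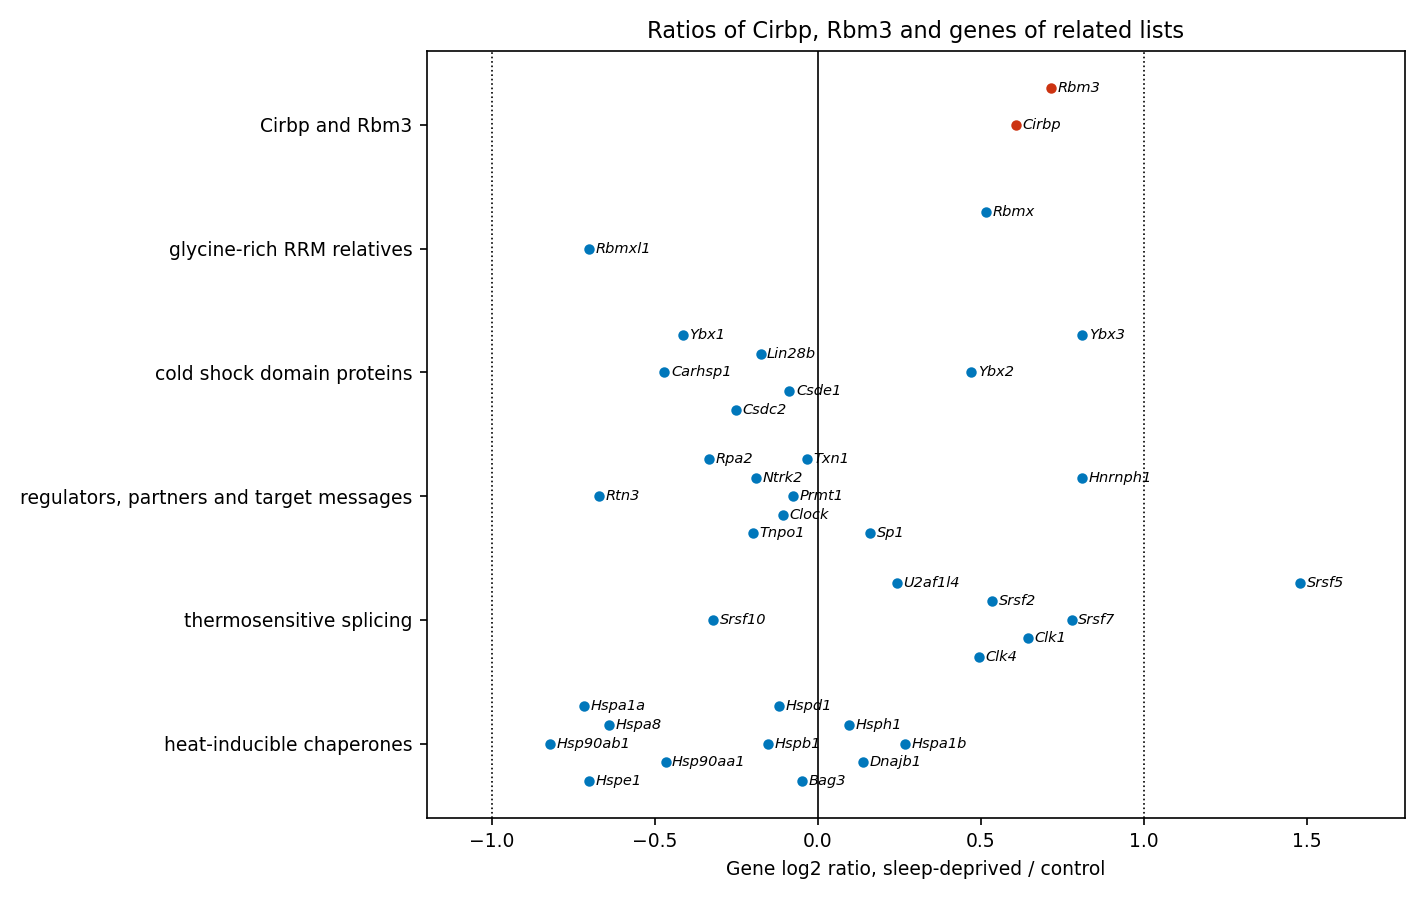
Log2 ratio of sleep-deprived over control reads for Cirbp and Rbm3 (red) and for the measured genes of 5 related lists (blue), 1 point per gene, with dotted lines at 2-fold. Srsf5 is the gene beyond a dotted line.

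Some genes of similar level had ratios close to those of Cirbp and Rbm3. Likeness was the distance between log2 ratios over the 2 libraries, among measured genes of similar mean TPM. Of 292 such genes, Zmynd11 (1.52), Birc6 (1.52) and Ypel4 (1.53) were nearest to Cirbp. Their coding shares were 66.5% in the sleep-deprived library and 64.4% in the control library for Zmynd11, 27.6% and 20.6% for Birc6, and 22.1% and 10.2% for Ypel4. Of 199 such genes, Pi4ka (1.63) and Prrc2a (1.62) were nearest to Rbm3. Their coding shares were 61.9% in the sleep-deprived library and 40.9% in the control library for Pi4ka, and 76.9% and 74.7% for Prrc2a. None of these named genes had a lower coding share in the sleep-deprived library. The median difference over 9507 genes was −0.18 percentage points, so these few genes set nothing apart in Cirbp or Rbm3.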

How the data were processed

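Per the file headers, each of the 4 files gives for 116546 transcripts a length, an effective length, a TPM and an estimated number of reads. The estimated counts and the TPM are the authors' own, deposited per transcript. The submitters' processing notes name Salmon, DESeq2 and mm10, while the sources used here do not give versions, transcript annotation, read layout or strand. Such estimates divide reads shared by similar transcripts by a model. Transcripts were matched by identifier, ignoring its version, to the annotation of GENCODE mouse release 21 on GRCm38 (99.4% matched). The files held between 14431647 and 14473030 estimated reads in the sleep-deprived group and between 14833320 and 14877011 in the control group.

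The files of a group were averaged as 1 library, and averaged estimated counts were rounded and summed by gene. Genes kept by edgeR 4.0.16 filterByExpr (minimum count 10) are called measured, 14932 in all, and TMM sizes on them scaled genes and transcripts alike. Since 1 library per group leaves no residual degrees of freedom, a rule of size replaced the planned edgeR test. A gene or transcript is higher or lower at 2-fold or more with an exact conditional 95% interval of the ratio that excludes 1, a library under 3 reads being set to 3 for the fold. Shares have exact binomial intervals. Intervals cover counting error only, without error of read assignment. The rules were tested on simulated gene counts with counting error only, which held no error of read assignment and no spread between animals.

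The members and lists were chosen with earlier results of these data known. Named beside Cirbp and Rbm3 are genes within 10 kb, list members past the rule, both glycine-rich relatives, and the 3 nearest genes in ratio, of which 1 for Rbm3 is not reported here. Carhsp1, Ybx3, Hnrnph1, Rtn3, Clock, Clk1, Hsp90ab1 and Hspa1b, and the genes of the closing section, were named after their values were seen, as were the sharing transcripts and copies.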

Additional observations from a re-analysis of the deposited data

How the results depend on the processing

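No paired analysis was possible because the 2 files of each group were counted as 1 library. For the same reason the edgeR quasi-likelihood test, the DESeq2 Wald test and the replicate block were not run. The read ratios of Cirbp and Rbm3 stayed above 1 and below 2 under all alternatives except 1. With protein-coding transcripts alone, Rbm3 turned to 0.986 and Cirbp was at 1.05, which follows from leaving out the other transcripts. With the transcript length correction the read ratios were 1.77 for Cirbp and 1.49 for Rbm3. The ratios in TPM were 2.06 for Cirbp and 1.73 for Rbm3. At 1.5-fold 1854 genes were higher and 2031 lower, at 3-fold 246 higher and 362 lower, and 5702 transcripts higher and 3262 lower. With transcript-level TMM scaling, chosen after the data were seen, 7733 transcripts were higher and 5917 lower, where gene-level scaling gave 8899 and 5015. Cirbp-202 turned to 0.998 with total count scaling and to 0.936 with transcript-level TMM, and the calls of Cirbp-205 (1.86) and Rbm3-208 (1.82) ended with the last. The coding share difference of Rbm3 was −28.6 percentage points in TPM and, chosen after the data were seen, −16.1 with Rbm3-211 and −26.9 with Rbm3-207 counted as coding. That of Cirbp was −19.3 in TPM and −22.0 without Cirbp-205. In TPM 2855 genes had a coding share shifted by 10 points, against 1871 in reads. Leaving out each file in turn kept the gene ratios between 1.52 and 1.65, the coding share difference of Cirbp between −21.9 and −21.5 and that of Rbm3 between −33.9 and −31.3. Gene counts in the files of a group differ by less than sampling noise, so the gene ratios could hardly move and this is no replicate check.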

Other observations

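Coding shares were also obtained for 25 genes of the related lists, and 4 were lower by at least 10 percentage points in the sleep-deprived library, with 0 higher by as much. Over all 9507 genes with a coding share 11.3% were lower and 8.41% higher by as much, so the count is close to the background and is not a result about these lists. Clk4, a kinase of SR proteins, had a coding share of 59.4% in the sleep-deprived library and 70.4% in the control library. The heat shock protein gene Hsph1 had one of 64.1% in the sleep-deprived library and 75.8% in the control library. The arginine methyltransferase gene Prmt1 had one of 67.9% in the sleep-deprived library and 81.2% in the control library. Csdc2, a cold shock domain gene, had one of 81.2% in the sleep-deprived library and 92.0% in the control library. In Srsf5, the gene with the largest ratio among these lists, coding transcripts took 21.7% of reads in the sleep-deprived library and 23.8% in the control library.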
